A study of Mus musculus with 6 samples.

Results

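B4 and ID are 2 related families of short interspersed elements (SINEs) of rodents, and their RNA was measured here in mouse E14 embryonic stem cells, an established line grown on gelatin. Single annotated copies were chosen by family name, B4 or ID, from a table of 26255 single copies of transposable elements (TEs). The choice gave 4091 copies, of which 3584 belong to B4 and 507 to ID. B4 copies carry the element names B4 (442 copies), B4A (865), ID_B1 (1193) and RSINE1 (1084). ID copies are named ID (51), ID2 (48), ID4 (191) and ID4_ (217).

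RNA of 3 Dot1l KO samples, with the genotype given as Dot1L-/- and made by CRISPR/Cas9, was set against RNA of 3 WT samples. Both genotypes were grown in serum with LIF, and all samples carry the label day 14, whose starting point is not stated. Dot1l encodes the enzyme that methylates lysine 79 of histone H3 along transcribed genes. The sources used here do not give the number of knock-out clones or say whether replicates were separate cultures, so the p-values measure only the spread between these samples.

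SINEs encode no protein. RNA polymerase III transcribes them from a promoter inside the element, and the enzymes of LINE-1 copy them back into the genome. ID elements derive from a transfer RNA and are related to BC1, a small RNA best known from neurons, while B4 elements join an ID-like part to a part like the B1 SINE, which itself comes from the RNA of the signal recognition particle. Both are old in the mouse genome and lie in large number within and near genes, so reads on a copy can also come from a longer transcript that runs through it. The tables name copies by element and number and give no coordinates, so transcription of the copy itself and of a host gene cannot be told apart, and no sequence of a copy was used here.

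The data are the authors' own comparisons, with no values per sample. Each copy has a mean normalized count across the libraries, a log2 fold change, the standard error (SE) of that change and a p-value from DESeq2. A call is an adjusted p under 0.05 over all copies in the table. Levels of the 2 genotypes were worked out from mean and fold change, taking the groups as equal in size, and are called implied levels. Dot1l itself had implied levels of 5439 in Dot1l KO and 6083 in WT, with -0.16 ± 0.25 (SE) and adjusted p of 0.845 in the authors' deposited table, so its RNA was not detectably lower. The tables do not state the sign of the fold change. Positive values were taken to mean higher in Dot1l KO, since the literature describes the retrovirus MERVL as repressed by Dot1l. If the sign were the other way, each direction given here would turn.

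Few B4 or ID copies passed the test in either direction. In B4, 3 copies rose and 2 fell among 3581 with a p-value, and in ID 0 rose and 1 fell among 506. These are 0.0838% higher and 0.0559% lower in B4 and 0.198% lower in ID. Over all TE copies, 0.878% were higher and 0.229% lower, so rises were a smaller share of these families than of the table. Falls were also a smaller share of B4 than of the table, but not smaller than in the SINE families Alu and B2. Other SINE families had low shares too. In the Alu family, which holds B1, 0.0790% were called higher and 0.0395% lower. In B2 the shares were 0.0359% each way, and in MIR 0 copies were called. At an unadjusted p under 0.05, B4 had 28 copies higher and 53 lower, and ID had 1 higher and 3 lower; the shares over all copies were 2.88% higher and 1.82% lower. In the LTR class, which holds MERVL, 2.79% of 7500 copies were called higher, and 209 of the 230 rises in the table lie there. The class also holds 46 of the 60 falls, which are 0.613% of its copies.

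**Figure D1:**
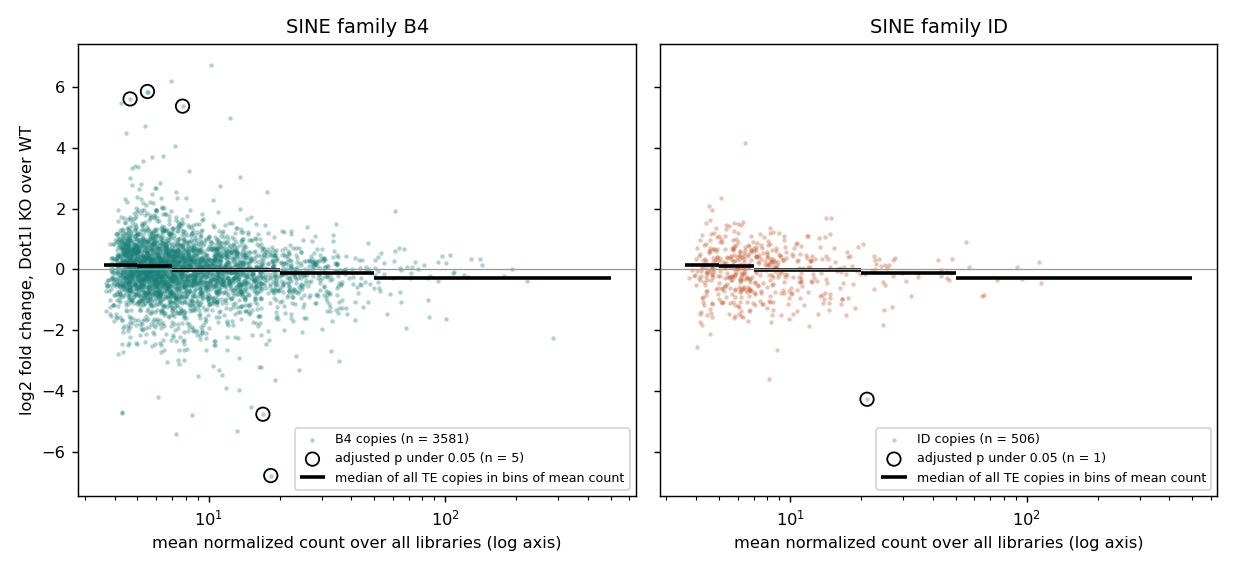
Log2 fold change (Dot1l KO over WT) against the mean normalized count on a log axis, 1 point per copy, for the B4 family (left) and the ID family (right). Circles mark the 5 B4 copies and the 1 ID copy past an adjusted p of 0.05, and bars give the median of all TE copies in bins of mean count; the called copies lie at means from 4.65 to 21.1.

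The 3 rises were all copies of RSINE1, and all had hardly any reads in WT. At means of 5 to 7, a B4 copy of median error needs a log2 change of about 4.03 to be called. A call at such counts therefore needs 1 genotype with few reads, so the low WT levels are no separate support for a rise. RSINE1_dup1751 had an implied level of 10.8 in Dot1l KO and one of no reads in WT. Its log2 fold change in the authors' deposited table was 5.85 ± 1.65 (SE), adjusted p of 0.0382. RSINE1_dup45671 stood at 9.12 in Dot1l KO and at no reads in WT, with 5.61 ± 1.62 and adjusted p of 0.0494 in the authors' deposited table. With WT set to a floor of 3 reads over the group, RSINE1_dup1751 was at least 10.8-fold and RSINE1_dup45671 at least 9.12-fold higher in Dot1l KO. Those bounds leave out the error of the Dot1l KO level.

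RSINE1_dup101643 was at 15.1 in Dot1l KO and 0.366 in WT, a WT level of about 1 read over the group. The authors' deposited table gives it 5.37 ± 1.55 (SE), adjusted p of 0.0496. The ratio of Dot1l KO to WT was 41.3, with an exact (Clopper-Pearson) 95% counting interval of 7.68 to 1816 that covers counting error only and leaves out the spread between samples. All 3 rises lie close to the threshold, at mean counts of 4.65 to 7.76. When fold changes were centred within bins of mean count, the 3 copies just missed the threshold at nearly the same size. RSINE1_dup1751 then had 5.69 with adjusted p of 0.0520, RSINE1_dup45671 5.39 with 0.0723 and RSINE1_dup101643 5.35 with 0.0528. Centred on the table's median, RSINE1_dup45671 had 5.59 with adjusted p of 0.0514 and RSINE1_dup101643 5.35 with 0.0515, and RSINE1_dup1751 still passed at 0.0398.

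The 3 falls came from 3 different elements, B4A, ID_B1 and ID, and had higher mean counts than the rises. ID_dup7576 had an implied level of 2.08 in Dot1l KO and 40.2 in WT. In the authors' deposited table it fell by 4.28 ± 0.99 on the log2 scale, with adjusted p of 0.00352, the smallest among the 4087 B4 and ID copies tested. Its 95% interval of the log2 fold change ran from -6.21 to -2.34.

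B4A_dup13228 was at 0.328 in Dot1l KO, about 1 read over the group, and at 36.3 in WT. The authors' deposited table has -6.79 ± 1.65 (SE), adjusted p of 0.00678, and the ratio of Dot1l KO to WT was 0.00906 with a counting interval of 0.000230 to 0.0522. B4A_dup13229, the B4A copy with the next number, had 7.84 in Dot1l KO and 62.9 in WT. It did not pass, at -3.00 ± 1.00 and adjusted p of 0.162 in the authors' deposited table; what order the copy numbers follow is not stated. ID_B1_dup100305 was at 1.20 in Dot1l KO and 32.7 in WT, with -4.77 ± 1.30 and adjusted p of 0.0265 in the authors' deposited table. ID_dup7576, B4A_dup13228 and ID_B1_dup100305 kept their calls under both ways of centring.

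Just outside the threshold lay 4 lower copies and 1 higher one. RSINE1_dup50668 had implied levels of 0.592 in Dot1l KO and 16.4 in WT and adjusted p of 0.0523 in the authors' deposited table. ID_B1_dup53064, at 0.333 in Dot1l KO and 14.2 in WT, has adjusted p of 0.0534 by the authors' deposited table. B4A_dup50785, at 1.26 in Dot1l KO and 28.9 in WT, had adjusted p of 0.0552 in the authors' deposited table. ID_B1_dup52097, at 0.636 in Dot1l KO and 25.7 in WT, had adjusted p of 0.0765 in the authors' deposited table. The higher one, ID_B1_dup76934, was at 10.9 in Dot1l KO and at no reads in WT, with adjusted p of 0.0855 in the authors' deposited table. RSINE1 thus had a copy with few reads in Dot1l KO next to the threshold as well as its 3 rises, and ID_B1 had copies on either side of 0.

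In the elements without a call, the copies with the smallest p were also far from passing. B4_dup52003, with implied levels of 10.4 in Dot1l KO and 0.392 in WT, had 4.73 ± 1.71 (SE) and adjusted p of 0.279 in the authors' deposited table. ID4_dup6030, at 1.23 in Dot1l KO and 15.1 in WT, had -3.62 ± 1.20 and adjusted p of 0.160 in the authors' deposited table. For ID2_dup4263, at 21.5 in Dot1l KO and 6.72 in WT, the authors' deposited table gives 1.68 ± 0.94, and for ID4__dup3665, at 8.55 in Dot1l KO and 1.66 in WT, it gives 2.36 ± 1.32. Neither of the last pair reached an unadjusted p under 0.05, and the elements ID2 and ID4_ had 0 copies past that level in either direction by DESeq2.

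Abundant copies showed no call in any element. Of the 61 copies with a mean of at least 50 and a p-value, 0 passed the test of DESeq2, and 1 was higher and 1 lower at an unadjusted p under 0.05. Their median log2 fold change was -0.09, against -0.28 over the 988 copies of the whole table at such means, of which 14 were called higher and 30 lower. ID_B1_dup97197 had implied levels of 97.1 in Dot1l KO and 25.8 in WT, with 1.91 ± 0.74 (SE) and adjusted p of 0.423 in the authors' deposited table. ID_B1_dup96356 had 28.5 in Dot1l KO and 108.1 in WT, with -1.92 ± 0.97 and adjusted p of 1.00 in the authors' deposited table.

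The copies with the highest means were 4 of each family. ID_B1_dup27273 averaged 471 normalized counts and RSINE1_dup103801 381.5 over all libraries, and the authors' deposited table gives neither a p-value. DESeq2 leaves the p of such a row blank where the count of 1 library lies far from the rest. Implied levels were 151.2 in Dot1l KO and 790.8 in WT for ID_B1_dup27273, and 309.8 in Dot1l KO and 453.3 in WT for RSINE1_dup103801. ID_B1_dup65728, with 98.5 in Dot1l KO and 472.2 in WT, had -2.26 ± 3.73 (SE) in the authors' deposited table, an error that spans either direction. B4_dup53382 followed with 193.5 in Dot1l KO and 250.0 in WT, at -0.37 ± 0.81 in the authors' deposited table. Without a p were also RSINE1_dup105413, at 11.2 in Dot1l KO and 118.7 in WT, and ID_dup5559, at 17.2 in Dot1l KO and 88.3 in WT. All 4 copies without a p were lower in Dot1l KO by their implied levels, and none of them can be counted as a fall.

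The 4 ID copies with the highest means were all copies of ID4 or ID4_. ID4__dup17562 had implied levels of 96.9 in Dot1l KO and 132.2 in WT, with -0.45 ± 0.73 (SE) in the authors' deposited table. ID4_dup21957 had 122.0 in Dot1l KO and 102.6 in WT, with 0.25 ± 0.68 in the authors' deposited table. ID4_dup11272 stood at 85.5 in Dot1l KO and 105.5 in WT, and ID4__dup1270 at 93.0 in Dot1l KO and 88.6 in WT. Their 95% intervals cover 0, and the one of ID4_dup11272 runs from -1.57 to 0.96, so changes inside those bounds could not be told from 0 in that copy.

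**Figure D2:**
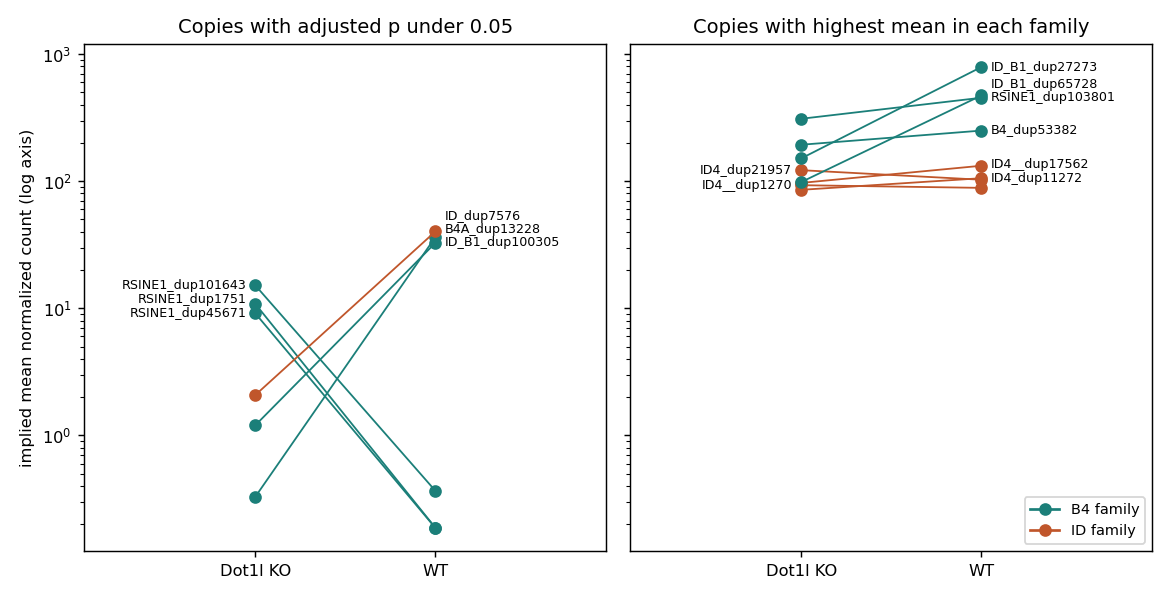
Implied mean normalized count on a log axis in Dot1l KO (left point) and WT (right point), 1 line per copy, for the 6 called copies and for the 4 copies with the highest mean in each family. The called copies cross between levels of 0.187 (taken as no reads) to 2.08 in 1 genotype and 9.12 to 40.2 in the other. The abundant ones lie between 85.5 and 790.8. Among them, ID_B1_dup27273 (151.2 in Dot1l KO, 790.8 in WT, no p) and ID_B1_dup65728 (98.5 in Dot1l KO, 472.2 in WT, SE 3.73) differ most.

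The copies as a whole stood near 0, in B4 as in ID. The median log2 fold change was -0.03 over B4 copies, with quartiles at -0.53 and 0.44, and -0.05 over ID copies, with quartiles at -0.61 and 0.41. It was 0.02 over all TE copies and -0.08 over copies of the Alu family, which holds B1. Over B2 copies it was -0.08, and over copies of the old MIR family -0.06. Setting the 6 B4 copies without WT reads to their bound left the B4 median at -0.03. Without values per sample the difference between the families could not be tested, and copies are not replicates of a genotype.

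Element by element the medians ran from -0.10 to 0.14. They were -0.02 for B4, -0.02 for B4A, -0.05 for ID_B1 and -0.02 for RSINE1. In the ID family they were 0.14 for ID, -0.10 for ID2, 0.02 for ID4 and -0.10 for ID4_. The ID elements rest on few copies, 48 to 217 with a p each, and the quartiles of all 8 elements lie on either side of 0. At an unadjusted p under 0.05 by DESeq2, RSINE1, the element with the 3 rises, had 8 copies higher (0.739%) and 15 lower (1.39%). ID_B1 had 10 higher (0.839%) and 19 lower (1.59%). B4A had 5 higher (0.578%) and 15 lower (1.73%), and B4 5 higher (1.13%) and 4 lower (0.905%). Over all TE copies the shares were 2.88% higher and 1.82% lower, so none of these B4 elements exceeded the table in either direction. The LTR class raises the table's shares, with 7.04% higher and 3.31% lower. Lower copies made up 1.15% of the Alu family, 1.04% of B2 and 1.08% of MIR. Those shares are below the ones of RSINE1, ID_B1 and B4A and above that of B4. Higher copies made up 0.593%, 0.431% and 0.962% of the same families. These differences were not tested.

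**Figure D3:**
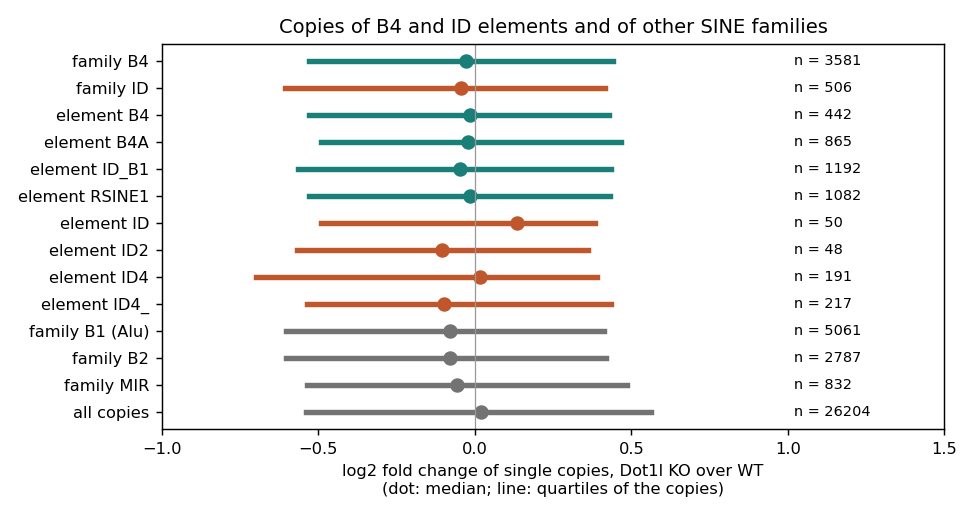
Median (dot) and quartiles (line) of the log2 fold changes, Dot1l KO over WT, of single copies by family and element, with other SINE families and all TE copies below. The 8 elements have medians from -0.10 to 0.14, and each line covers 0.

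The median log2 fold change also differed between classes of mean count. In B4 it was 0.15 under a mean of 5, -0.0048 at 5 to 7, -0.03 at 7 to 10, -0.10 at 10 to 20, -0.18 at 20 to 50 and -0.07 at 50 or more, the last over 52 copies. In ID the same classes gave -0.04, -0.06, 0.10, -0.13, -0.12 and -0.30, with no steady course and 9 copies in the last. Over all TE copies they gave 0.14, 0.12, -0.01, -0.03, -0.11 and -0.28. B4 thus went down class by class up to a mean of 50 and was nearer 0 above it. At an unadjusted p under 0.05 by DESeq2, 12 of 1061 B4 copies with a mean of 5 to 7 were higher and 6 lower. Of 799 B4 copies with a mean of 10 to 20, 4 were higher and 25 lower at that level. Over all TE copies, 210 of 7081 were higher and 36 lower at a mean of 5 to 7. At a mean of 10 to 20, 187 of 5950 were higher and 158 lower.

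Single copies were measured with low precision. The median mean was 7.28 normalized counts, against 7.90 over all TE copies, and 68.9% of the copies had a mean under 10. The median SE was 1.10 on the log2 scale, and a copy with that error needs a change of about 3.81 to be called. Not one copy had a 95% interval inside a 2-fold change in either direction, and 386 had one inside a 4-fold change. In 24 copies the SE was above 2, from 3.08 upwards. Absence of a call in a single copy is therefore no sign that its level was the same in both genotypes.

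**Figure D4:**
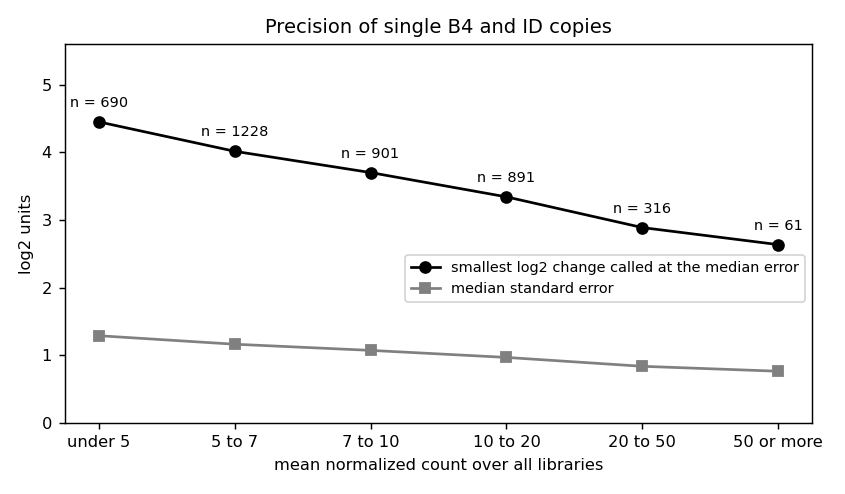
Median standard error (squares) and the log2 change that would be called at that error (circles) for B4 and ID copies in bins of mean normalized count, with the number of copies. The change needed falls from 4.45 under a mean of 5 to 2.63 at a mean of 50 or more.

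Sums over all copies of an element were measured far more precisely, and none of them passed the test. In the subfamily table, which pools the reads of each element, 0 of the 8 element rows passed the test of DESeq2 and 0 reached an unadjusted p under 0.05. Over all subfamilies, 0.641% were called higher and 0.107% lower, and at an unadjusted p under 0.05 1.92% were higher and 3.31% lower. The 8 log2 fold changes lay between -0.24 and -0.11, with 95% intervals from -0.61 to 0.27 at their widest ends, which is 0.656-fold to 1.21-fold. A pooled change as large as a doubling or a halving lies outside each of these intervals.

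ID_B1, whose reads make up the fourth largest row of the subfamily table, had implied levels of 29577 in Dot1l KO and 34838 in WT. Its log2 fold change was -0.24 ± 0.16 (SE), p = 0.137 and adjusted p of 0.996 in the authors' deposited table, the smallest p among the 8. RSINE1 was at 26974 in Dot1l KO and 30587 in WT, with -0.18 ± 0.17 in the authors' deposited table. B4A, at 20860.4 in Dot1l KO and 22715 in WT, had -0.12 ± 0.20, and B4, at 11286 in Dot1l KO and 12173 in WT, had -0.11 ± 0.17, both in the authors' deposited table. The intervals of these B4 elements overlap throughout.

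The ID elements gave smaller sums, and none of their rows passed either. ID4_ had implied levels of 5535 in Dot1l KO and 6161 in WT and ID4 4933 in Dot1l KO and 5701 in WT, with -0.15 ± 0.20 and -0.21 ± 0.20 (SE) in the authors' deposited table. The element ID was at 1451 in Dot1l KO and 1650 in WT, with -0.19 ± 0.17 in the authors' deposited table. ID2 was at 1149 in Dot1l KO and 1300 in WT, with -0.18 ± 0.20 in the authors' deposited table. All 8 estimates lay below 0, and 4 of them, B4, B4A, RSINE1 and ID4_, came out slightly above 0 when centred within bins of mean count. Of the 134 subfamilies with a mean of at least 1000, which share libraries and scaling, 113 lay below 0, with a median of -0.16.

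**Figure D5:**
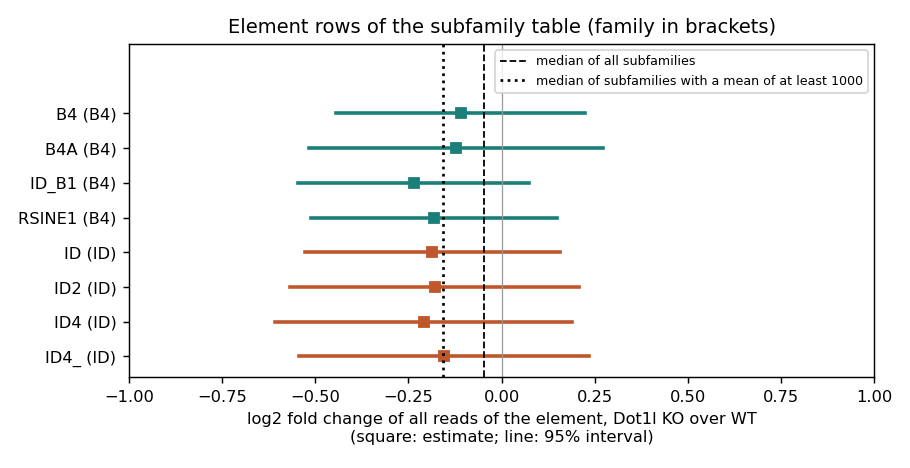
Log2 fold change (Dot1l KO over WT, squares) with its 95% interval (lines) for the 8 B4 and ID rows of the subfamily table, and the medians of all subfamilies (dashed) and of those with a mean of at least 1000 (dotted). All 8 intervals cover 0 and lie between -0.61 and 0.27.

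Element rows of B2 and of the Alu family spread more widely than those of B4 and ID. The 5 rows of B2 lay between -0.77 and -0.17 and the 4 rows of MIR between -0.18 and -0.08. The 16 rows of the Alu family, which holds the B1 elements, lay between -0.42 and 0.94. Means and errors of the B2, MIR and Alu rows were not compared with those of B4 and ID. None of these rows was called either; 1 of them, FAM, reached an unadjusted p under 0.05.

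The copy table holds only part of these reads. The means of the copies listed sum to between 38.4% of the element row (ID2) and 43.6% (ID_B1), the tables being scaled separately. Copy numbers reach 115646 in RSINE1 and 110705 in ID_B1, and the copies listed are 0.649% (ID) to 1.08% (ID_B1) of the highest number of their element. The lowest mean among them was 3.67, and copies below it were not analysed here. Over the copies with a p-value, implied levels summed to 37091 in Dot1l KO and 40659 in WT for B4, and to 5152 in Dot1l KO and 5583 in WT for ID. The ratios of those sums were 0.912 and 0.923.

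Among genes of the RNA polymerase III machinery, of SINE RNA handling and of SINE chromatin, 1 rose and 1 fell, too few to set these lists apart from all genes. Of 30 genes of the RNA polymerase III machinery, 0 rose and 1 fell, with a median log2 fold change of -0.20. Among all genes tested, 5.34% rose and 1.25% fell, and the median was -0.02. The fall was Polr3gl, one of a pair of alternative polymerase III subunits, at implied levels of 434 in Dot1l KO and 1045 in WT and -1.27 ± 0.31 (SE), adjusted p of 0.00135, in the authors' deposited table. Polr1d, a subunit shared with polymerase I, had -0.69 ± 0.38 and adjusted p of 0.355 in the authors' deposited table.

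Of 7 genes for proteins that bind or process SINE RNA, such as the editing enzyme Adar, 0 passed the test of DESeq2, and 0 reached an unadjusted p under 0.05. Dhx9, a helicase of structured RNA, had the smallest p of them, with 0.29 ± 0.30 (SE) in the authors' deposited table, and Adar had 0.25 ± 0.28 in the authors' deposited table. Of 17 chromatin genes, among them Adnp and Chd4, parts of a complex that binds SINEs in stem cells, 1 rose and 0 fell. It was Dnmt3a, a de novo DNA methyltransferase, at 0.85 ± 0.24 with adjusted p of 0.00822 in the authors' deposited table. Suv39h2, a methyltransferase of lysine 9 of histone H3, had -0.44 ± 0.27 and adjusted p of 0.441 in the authors' deposited table.

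Marker genes of the cell type were present in both genotypes. The 8 embryonic stem cell markers had means of 5956 to 50682 normalized counts, 0 were called, and 1, Tdgf1, was at an unadjusted p under 0.05. Of 10 markers of the 2-cell-like state, to which MERVL belongs, 8 rose and 0 fell, with implied levels summing to 2144 in Dot1l KO and 33.9 in WT. Their direction rests on the sign taken from MERVL and is no separate support for that sign. Of 8 fibroblast markers measured, 4 rose and 0 fell, with a median log2 fold change of 0.97. Their sums were 8677 in Dot1l KO and 10026 in WT, and the most abundant marker, with a mean of 7641, makes up most of them. Of 6 neuron markers 0 were called, with sums of 13706 in Dot1l KO and 12949.5 in WT. The part of such cells in the copies that changed was not tested, and in bulk RNA fewer cells of a type and less RNA per cell cannot be told apart.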

How the data were processed

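RNA of 3 Dot1l KO and 3 WT samples of mouse E14 embryonic stem cells was sequenced. Per the submitters' processing notes, reads were aligned with HISAT2 2.1.0 to mm10, counted with featureCounts 2.0.0 and tested with DESeq2. The sources used here do not give its version, or how strand and reads mapping to several places were treated, so counts of single SINE copies are uncertain.

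The 3 deposited tables (genes, TE subfamilies, TE copies) hold no column of single samples, so depth per library is unknown. Per the file headers, the mean is a signal, the average of counts the authors divided by size factors. The deposited log2 fold change and its error are the authors' own, and the deposited score is the authors' Wald statistic. The deposited p-value has a Benjamini-Hochberg adjustment, which gave the same values when recomputed over each table.

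The members and gene lists were chosen with earlier results of these data known. The planned fits of samples could not be run, so calls are the authors' DESeq2 calls. Intervals are the estimate with the 95% normal quantile of its error. Implied levels assume equal groups; under 0.25 a group was taken as without reads, since such levels form a step below that of 1 read, and was set to a floor of 3 reads. Intervals and floors for reads cover counting error only.

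Named copies were, per family, the 6 largest rises and falls called at a mean of at least 20 and the 4 with the highest mean, and, per element with at least 20 copies, the one with the smallest p. RSINE1_dup45671, RSINE1_dup101643, B4A_dup13229, the copies just outside the threshold, those without a p and the abundant ones with the smallest p were chosen after their values were seen. Genes named were Dot1l and the 2 of each list with the smallest p. Alternatives were a stricter threshold of 0.01, a log2 change of at least 1, Bonferroni adjustment, centring on the table's median or in 20 bins by mean count, and means of at least 10 or 50. The code that applies them was also tested on simulated data. Work was done in Python 3.11.15 with pandas 2.3.3 and scipy 1.17.1.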

Additional observations from a re-analysis of the deposited data

How the results depend on the processing

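No paired analysis was possible because the tables hold no values per sample, and for the same reason no replicate could be left out and no second tool run. The 3 rises and 2 falls in B4 became 0 rises and 1 fall at an adjusted p under 0.01, 0 and 0 under Bonferroni adjustment and at a mean of at least 50, and 0 rises and 4 falls at a mean of at least 10. Of those last 4, 2 (B4A_dup50785 and ID_B1_dup52097) were not called before, and their adjustment ran over 9558 copies in place of 26204. The 3 rises, with means of 4.65 to 7.76, lay below a mean of 10 and were not tested in that setting. Centring on the median of the table left 1 rise, and centring within 20 bins of mean count 0 rises, while both kept the 2 falls. The rises that dropped out hardly changed in size, to 5.35 and 5.59 with adjusted p of 0.0515 and 0.0514 on the table's median, and to between 5.35 and 5.69 with adjusted p of 0.0520 to 0.0723 within bins. The fall in ID was lost, leaving 0, under Bonferroni adjustment and at a mean of at least 50, where no called copy was left to test. The cause was not tested for the other changes. A log2 change of at least 1 kept all 6 calls. No alternative called an element row. Centring within bins turned the sign of 5 uncalled values, to 0.14 for B4A_dup32158 and, among element rows, to 0.079 for B4, 0.065 for B4A, 0.034 for ID4_ and 0.0069 for RSINE1. Single copies had a median mean of 7.28 and a median SE of 1.10, and at means of 50 or more the median SE was still 0.76; what part counting error and the spread between samples have in these errors was not tested.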

Other observations

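Copies of the same element that carry consecutive numbers had fold changes that were weakly related. Over 480 such pairs of B4 and ID copies, Pearson's r of the log2 fold changes was 0.30 and Spearman's rho 0.28, and 60.8% of pairs had the same sign. Each copy was paired only with the next listed copy of its element. Over 1360 such pairs with numbers 21 to 100 apart, r was 0.05 and rho 0.05, and 51.8% had the same sign. The points share libraries and scaling, copies are not independent, and what order the numbers follow is not stated. With both means at 10 or more, r was 0.40 and rho 0.25 over 86 consecutive pairs, and 55.8% had the same sign. At such means, 255 pairs with numbers 21 to 100 apart gave r of 0.11 and rho of 0.08, and 53.7% had the same sign. With both means at 20 or more, r was -0.06 and rho 0.08 over 19 consecutive pairs. Over 829 consecutive pairs of other SINE copies at any mean, r was 0.24 and rho 0.20, and 57.9% had the same sign. For other SINE copies with means of 20 or more, 36 consecutive pairs had r of 0.15 and rho of 0.14. At those means, 68 pairs with numbers 21 to 100 apart had r of 0.60 and rho of 0.17.

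Besides the copies described, 3 B4 copies had an implied WT level of no reads and errors too large for a call. B4A_dup31812 was at 20.2 in Dot1l KO, RSINE1_dup47099 at 13.7 and B4_dup59639 at 8.29, each with an SE of 3.71 to 3.91 in the authors' deposited table.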
